A study of Mus musculus with 13 samples.

Results

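The data described here are the baseline transcriptome of proliferating C2C12 myoblasts, as given by 4 of the 13 libraries of a series on siRNA knockdown, replicates A to D of control KD cells at 0 day. They were chosen by their labels alone: nontargeting siRNA and proliferating myoblasts. C2C12 is an established mouse line of muscle precursor cells that grows as single cells in serum and fuses into myotubes once the serum is changed. All 4 cultures were grown in DMEM with fetal bovine serum, reverse transfected with nontargeting siRNAs and harvested 48 h later without a change to differentiation medium, so that the cells are a transfected and not an untouched baseline. The line has been kept in culture for many passages, and the labels name the 4 libraries biological replicates without saying what was kept separate between them, such as passage or day. Messenger RNA libraries were made from total RNA, and the deposited values are estimated counts for 55642 genes.

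A myoblast is a cell committed to muscle that still divides. In such cells the transcription factors Myod1 and Myf5 hold the muscle fate, the cell surface carries muscle integrins and cadherins, and the genes of the contractile apparatus are switched on only when division stops. A level in CPM is the count of a gene per 1000000 counts of its library. A level in CPM per kb is divided by the length of the canonical transcript as well and was used wherever the level of one gene is set against that of another, since a longer transcript yields more fragments. The spread between libraries is given as the CV, the SD over the 4 libraries as a percentage of their mean. No group was compared with another, so no p-value is given.

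The control siRNAs of the study are shown because all 4 cultures were transfected with nontargeting siRNAs. The study lists 4 nontargeting siRNAs, and the sources used here do not say which of them went into these cultures. The antisense strands follow, 5′ to 3′, with the seed (bases 2 to 8) in capitals.
nontargeting 1: uUAGUCGAcauguaaacca
nontargeting 2: uCACACAAcauguaaacca
nontargeting 3: uCAGAAAAcauguaaacca
nontargeting 4: uAGGAAAAcauguaaacca
The 4 strands of 19 bases share their last 12 bases and differ in the seed.

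Total counts were 43604528 in replicate A, 43993711 in B, 62261197 in C and 33451547 in D. At these depths 1 count was worth 0.0161 to 0.0299 CPM, and a count of 0 allowed a level of up to 0.0482 to 0.0897 CPM in its library, taken as 3 counts. These limits cover counting error only. Replicate D stood apart from the others. Over the 12193 genes at 1 CPM or more in all 4 libraries, log2 CPM correlated at Pearson's r = 0.992 to 0.993 between replicates A, B and C and at 0.949 to 0.957 between each of them and D, across genes that are not independent. D was at 2 times the mean of A to C or more for 480 of these genes and at 0.5 times that mean or less for 782. The 6 pairs of libraries all differed by more than sampling noise, the chi-square of their counts being 17.5 to 170 times its degrees of freedom, so that no pair held copies of 1 library. This does not tell separate cultures from repeats of one culture. Values without D are therefore given beside the spread over all genes and beside the genes whose spread D sets most.

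Of the 55642 genes, 18216 had at least 1 count in all 4 libraries and 29417 (52.9%) had none in any. The number with at least 1 count in a library was 22149 in A, 21724 in B, 22444 in C and 21047 in D. Thinned to the total of replicate D, the libraries would be expected to show 21502, 21098, 21135 and 21047 genes, and C then no longer had the most. A level of 1 CPM or more was reached in all 4 libraries by 12193 genes, of 10 CPM or more by 8972, of 100 CPM or more by 1859 and of 1000 CPM or more by 61. Protein-coding genes took 96.0% ± 0.166 (SD, n = 4) of the counts, pseudogenes 2.82% ± 0.175 and lncRNAs 0.892% ± 0.0412. The pseudogene share includes 4 copies of mitochondrial genes on chromosome 1, which summed to a mean of 10840 CPM.

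The counts were spread over many genes. The 10 genes with the highest median CPM held 5.98% ± 0.567 (SD, n = 4) of the counts, the top 100 held 19.9% ± 0.489 and the top 1000 held 50.7% ± 0.234. It took 969 genes to reach 50% of the counts in A, 971 in B, 957 in C and 874 in D. Of the top 100 genes by median, 77 were in the top 100 of each library, and of the top 1000, 789 were. In the plot of level against rank the 4 curves lay close together after the first places, and at the low end they stopped at different ranks and levels.

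**Figure D1:**
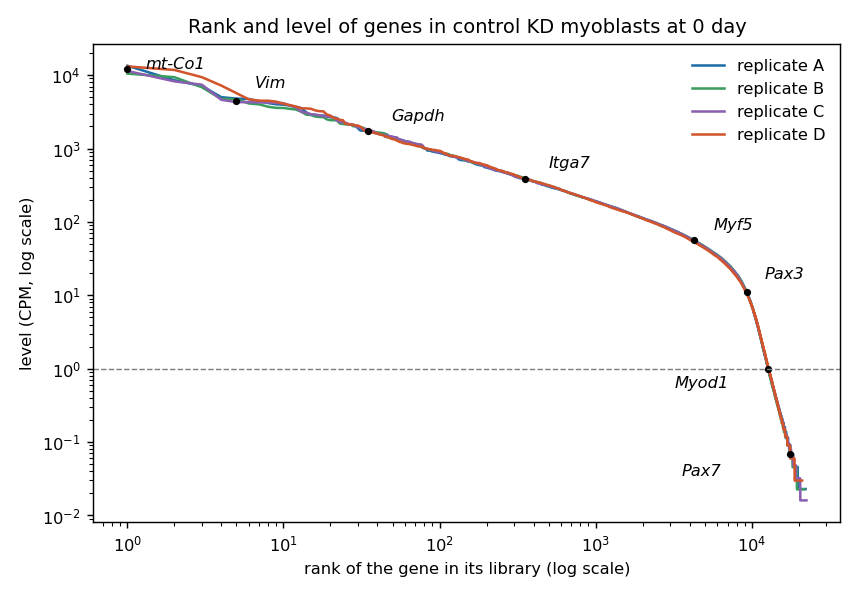
Level of each gene (CPM, log scale) against its rank in its library (log scale), with a line for each of the 4 libraries and points for 8 genes at their median level and rank. The lines part over the first ranks and lie close together after them. At the low end they stop at different ranks, from 21047 genes in D to 22444 in C. Myod1 lies at the dashed line of 1 CPM while Itga7 and Myf5 lie far above it.

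Matrix, cytoskeletal, translation and mitochondrial genes took the most counts. By median CPM the first gene was mt-Co1 (chromosome M, 5328 to 6872, GRCm39), which encodes a core subunit of cytochrome c oxidase, at 13438 CPM in A, 10495 in B, 11409 in C and 13140 in D. Next was Col1a2 (chromosome 6, 4504814 to 4541555), a chain of type I collagen, at 8508, 9378, 8229 and 11765 CPM. Eef1a1 (chromosome 9, 78384916 to 78396778), the factor that brings aminoacyl-tRNA to the ribosome, had 7126, 6842, 7409 and 9381 CPM. Replicate D was the highest for Col1a2 and Eef1a1 and lay within the other libraries for mt-Co1. The fibronectin gene Fn1 was next, at 4265 to 4791 CPM in A to C and 7199 in D, and Vim, the intermediate filament of mesenchymal cells, followed at 4399 to 4722 in A to C and 3901 in D. The rest of the 20 highest held the cytoplasmic actins Actg1 and Actb, the elongation factor Eef2, the chaperone Hsp90ab1, the collagens Col1a1 and Col3a1, the ferritin light chain Ftl1, carbonic anhydrase Car3, the nonmuscle myosin Myh9, the lectin Lgals1, the actin crosslinker Flna, mt-Nd1, mt-Cytb and the pseudogenes Atp6-ps and Gm28661.

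The order among neighbours was loose. Of the 19 neighbouring pairs in these 20 genes, 3 kept their order in all 4 libraries, and no pair had ranges that were apart. Per kb, mt-Co1 remained first at a median of 7945 CPM per kb, followed by Atp6-ps at 6437, Gm28661 at 6300, Eef1a1 at 4051, mt-Nd1 at 3769, Ftl1 at 3227 and Lgals1 at 3093. Of the 20 genes highest by CPM, 13 (65% of each list) were also among the 20 highest per kb. Long transcripts left the list and short ones entered it: Fn1, with a canonical transcript of 8410 nt, went from place 4 to place 88, Flna (10089 nt) from 20 to 218 and Myh9 (7439 nt) from 18 to 143. The ribosomal protein genes Rpl41 (560 nt) and Rps12 (460 nt) moved from places 51 and 132 to places 10 and 18.

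Of the high pseudogenes, 4 lie side by side on chromosome 1 and are copies of mitochondrial genes. Such nuclear copies of mitochondrial DNA arise when a stretch of it is inserted into a chromosome. Atp6-ps, Gm28661 and Gm28437 matched mt-Atp6, mt-Co2 and mt-Co3 at 100% identity over their whole lengths of 678, 681 and 783 bases. Gm29216 matched mt-Co1 at 99.8% over 483 bases. The windows below show what a read would see, at the same place of gene and pseudogene, on the strand of the gene. The first pair is the same in every letter. The second pair holds the one difference found, A1066T, in capitals, counted from the first base of mt-Co1 with the base of mt-Co1 first.
mt-Co2, chrM:7313-7342, plus strand: gggcaccaatgatactgaagctacgaatat
Gm28661, chr1:24654317-24654346, minus strand: gggcaccaatgatactgaagctacgaatat
mt-Co1, chrM:6390-6419, plus strand: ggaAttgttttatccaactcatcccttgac
Gm29216, chr1:24655240-24655269, minus strand: ggaTttgttttatccaactcatcccttgac
Reads that lie wholly within an identical stretch cannot be assigned to the gene or to its copy by their sequence. How the mapping divided such reads here was not tested.

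The levels followed the pairs. Gm28661 had 4728, 3569, 4230 and 4351 CPM in A to D, against 64.8, 117, 64.0 and 80.1 CPM for mt-Co2. Atp6-ps had 5003, 2869, 4241 and 4488 CPM, against 173, 394, 244 and 174 for mt-Atp6. Gm28437 had 2433, 2003, 2247 and 2065 CPM, against 321, 278, 323 and 507 for mt-Co3. In these 3 pairs the pseudogene took 98.1%, 94.4% and 86.0% of the summed mean. For mt-Co1, whose copy covers only its end, the pseudogene took 2.29%. Replicate B was the lowest for all 4 sums and the highest of the 4 libraries for mt-Co2 and mt-Atp6 alone. The 13 mitochondrial protein transcripts summed to 25325 ± 3138 CPM, and to 36166 ± 4720 CPM with the 4 pseudogenes added (SD, n = 4), with the lowest value, 29700 CPM, in replicate B and the highest, 41008, in A.

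**Figure D2:**
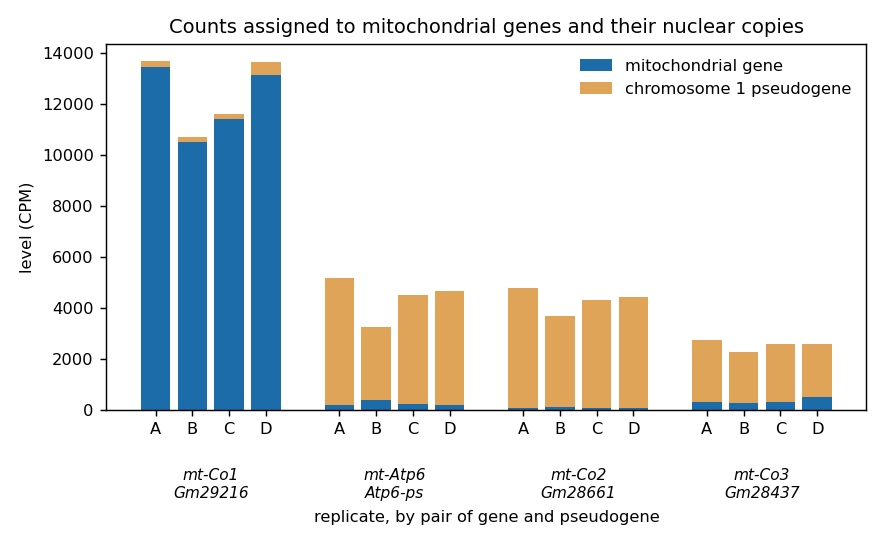
Level in CPM, starting at 0, of 4 mitochondrial genes (lower part of each bar) and their copies on chromosome 1 (upper part) in replicates A to D. In 3 of the pairs nearly all of the bar belongs to the pseudogene, and replicate B has the lowest bar in each pair.

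Some copies of nuclear genes also had more counts than their match. Of the pseudogenes at a median of 100 CPM or more, 29 in number, all matched a transcript and 25 did so at 99% identity or more. The match ran over 90% or more of the pseudogene in 19 of these and over 35.2% to 89.5% of it in the other 6. In 14 of these 25 pairs the pseudogene had more counts than its match. Gm15459, a copy of the chaperone gene Hspa8, had 1720 to 2022 CPM beside 1061 to 1271 for Hspa8, and Gm13394, a copy of Gapdh, had 1446 to 2061 CPM beside 1680 to 2164 for Gapdh. The ribosomal protein gene Rps2 had 87.9 CPM in A, 472 in B, 298 in C and 85.2 in D, a CV of 79.0%. Its copy Rps2-ps10 had 1669 to 1935 CPM, a CV of 6.15%. The sum, 88.4% of it in the pseudogene, had a CV of 14.3%, above that of the pseudogene alone. Both genes were highest in B and lowest in D. The CV of the sum lay below that of either partner in 10 of the 25 pairs, with a median of 10.7% for the sums, 12.7% for the pseudogenes and 14.9% for their matches. How reads were divided within these pairs was not tested. The level of a gene with such a copy is uncertain here, for Gapdh, Hspa8 and the ribosomal protein genes among others.

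The markers of the labelled cell type were mixed. Of 10 myoblast markers, 8 reached 1 CPM in all 4 libraries, and their summed level was 965 to 1092 CPM. Per kb the order was led by Itga7, the laminin receptor of muscle, at a median of 94.1 CPM per kb, then Chrna1, the alpha subunit of the muscle acetylcholine receptor, at 63.3, with ranges that did not overlap. Itga7 had 370, 401, 367 and 546 CPM, Chrna1 278, 300, 296 and 233. Cdh15, the muscle cadherin, had 140, 132, 153 and 111 CPM. D was the highest library for Itga7 and the lowest for Chrna1 and Cdh15, so that no common shift of the markers was seen in it. Des, the muscle intermediate filament, had 15.6, 19.5 and 15.6 CPM in A to C and 50.3 in D. Musk, the kinase of the neuromuscular junction, had 4.82 to 5.87 CPM and Chrnb1 30.9 to 32.0.

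Of the muscle fate factors, Myf5 was well above and Myod1 near the limit used here. Myf5 had 59.0, 53.1 and 61.7 CPM in A to C and 30.3 CPM in D. Myod1 had 0.917, 1.05, 1.11 and 0.927 CPM, with a CV of 9.31%, and lay at rank 12750 by median CPM. Per kb the median of Myf5 was 26.9 and that of Myod1 0.522, and Myf5 was higher in each library. Myod1 is a defining marker of committed myoblasts, and its low RNA level was found in all 4 libraries alike. By immunoblot the study followed MYOD protein in C2C12 cells and reported that it fell upon differentiation. Protein was not measured in these libraries. Pax7, the factor of the muscle stem cell, had 0.0299 to 0.145 CPM, and its relative Pax3 had 10.5 to 11 CPM in A to C and 17.4 in D. Myog, which drives the step to differentiation, had 0.344, 0.886, 0.193 and 0.120 CPM and Myf6 0.0897 to 0.225. Twist1 was at 0 in all 4 libraries and Msc had 1 count in A only.

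Factors that work with them were also present. Eya4, a transcriptional coactivator of early muscle, had 81.5 to 97.3 CPM, and the homeobox factor Six4, a partner of the Eya proteins, had 37.3 to 49.7. The E proteins, with which Myod1 and Myf5 pair to bind DNA, had 166 to 203 CPM (Tcf12) and 135 to 163 CPM (Tcf3). The MEF2 factors Mef2a and Mef2d had 139 to 149 and 135 to 178 CPM. The CVs of these 6 genes ran from 2.73% for Mef2a to 13% for Six4, and Tcf12 had 1 library, D, apart from the others. Per kb the medians were 34.2 for Tcf3, 28.7 for Tcf12, 28.4 for Mef2d, 26.3 for Mef2a, 15.9 for Eya4 and 6.33 for Six4, beside 26.9 for Myf5. Id3, which binds E proteins and keeps them from DNA, had 57.2, 59.9, 65.7 and 17.4 CPM, with D far below the others. In all, 18 of the 25 myogenic regulators reached 1 CPM in every library, and their sum was 1488 ± 50.8 CPM (SD, n = 4).

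Genes of the sarcomere were low. Of 30 listed, 12 reached 1 CPM in all 4 libraries and 2 were at 0 in all, and the sum was 297, 381, 292 and 170 CPM. Tnnt2, the cardiac form of troponin T that early muscle also uses, had 84.6, 90.3 and 86.8 CPM in A to C and 28.7 in D. Ttn, the giant spring protein of the sarcomere, had 57.0, 54.3, 45.9 and 9.39 CPM, a median of only 0.466 CPM per kb over its transcript of 107543 nt. Myh1, a fast myosin heavy chain, had 13.1, 22.0, 11.9 and 0.568 CPM, and Myl1, a fast light chain, 32.4, 53.5, 30.4 and 5.83. For Myh1 and Myl1 replicate B was the highest and D the lowest library. The skeletal actin Acta1 followed the same order with 5.14, 16.6, 5.11 and 0.598 CPM. Actn3, also of the list, differed less, at 47.5, 57.0, 53.8 and 45.1 CPM. Of the 12 genes at 1 CPM or more, 8 were lowest in D, where 44.7% of all genes were. Myh1 and Acta1 were below 1 CPM in D and so are not among the 12. For 3 of the 12, D was above the mean of A to C. Among the actins the cytoplasmic forms led by far, with medians of 2048 CPM per kb for Actb and 1860 for Actg1, and ranges that overlapped. Smooth muscle Acta2 had 890, 912, 901 and 608 CPM (321 per kb), Actg2 9.66 to 18.0 CPM and cardiac Actc1 0.0299 to 0.159 CPM.

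Hox genes give cells their position along the body and limb axes, and their pattern is often kept in culture. Of the 39 Hox genes, 20 reached 1 CPM in all 4 libraries, and 6 were at 0 in all. Hoxc10 had 93.2, 95.9, 95.3 and 91.8 CPM, a CV of 1.99%, the highest level of the family per kb, at a median of 46.9. It was followed by Hoxc11 at 19.2 and Hoxa10 at 14.9 CPM per kb, and the ranges of these 3 genes were apart. The range of Hoxa11 (12.8 CPM per kb) overlapped with those of Hoxa10 and of Hoxa9 (12.4), and Hoxa11 and Hoxa9 changed order between libraries. In CPM, Hoxa9 had 35.2 to 51.4, Hoxc11 38.6 to 41.0, Hoxa10 34.8 to 41.3 and Hoxa11 24.8 to 33.7. Next came Hoxa7 (16.6 to 23.3) and Hoxc6 (13.5 to 20.8), which were both highest in D. The members left, from Hoxc9 at 9.18 to 10.9 CPM down to Hoxb5 at 1.03 to 1.20, included Hoxc4, Hoxc13, Hoxa5, Hoxa3, Hoxc5, Hoxb6, Hoxb3, Hoxa6, Hoxa13 and Hoxc8. All 20 thus came from the A, B and C clusters and none from the D cluster. The summed level of the family was 334, 338, 327 and 357 CPM.

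Other limb and axis factors split likewise. The paired-type homeobox genes Prrx1 and Prrx2 had 78.3 to 92.6 CPM and 45.7, 47.9, 59.2 and 90.3 CPM, the latter highest in D. Pitx1 and Tbx4, which mark the hindlimb, were at 0 in all libraries and at 0.241 to 0.455 CPM. Tbx5, which marks the forelimb, had no count in A and B, 1 in C and 2 in D. The reads thus held neither of the T-box genes that tell the limbs apart at a level of 1 CPM.

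**Figure D3:**
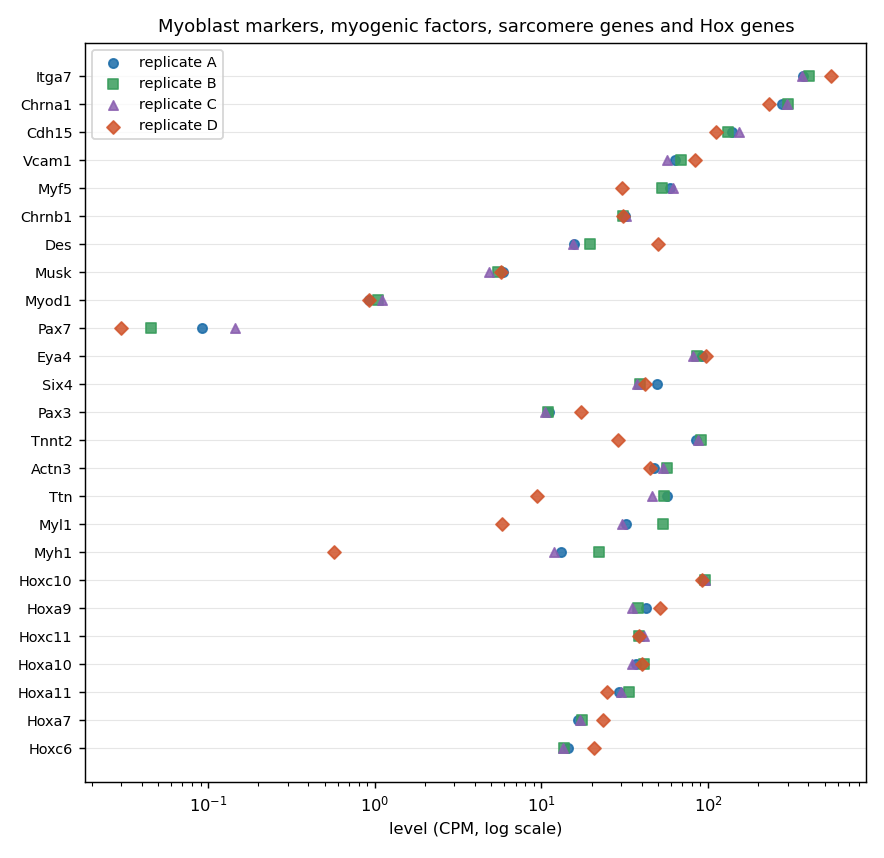
Level (CPM, log scale) of myoblast markers, myogenic factors, sarcomere genes and Hox genes in replicates A to D, with 1 point for each library. Hoxc10, Hoxc11, Chrnb1 and Myod1 have points that nearly coincide, while Myh1, Ttn, Myl1, Tnnt2 and Myf5 are lowest in D and Des is highest there.

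Markers of other cells were checked because a culture or a line can hold more than its name. Genes that fibroblasts share with cultured myoblasts were among the most abundant: Col1a2, Col1a1 and Col3a1 had medians of 1669, 564 and 548 CPM per kb. Pdgfrb had 310 to 478 CPM and Pdgfra 40.5 to 66.9 CPM, whereas Thy1 was at 0 in all libraries and Lum had 2 counts in B only. In all, 8 of the 10 fibroblast markers reached 1 CPM, with a sum of 14253 to 20077 CPM. Of the 6 smooth muscle markers, 3 reached 1 CPM in all libraries, with a sum of 737 to 1067 CPM. Acta2 was high, and of the others Tagln had 3.92 to 9.36 CPM and Myh11 0.0299 to 0.115, both named after their values were seen. Of 7 markers of bone and cartilage cells, Runx2 and Sox9 had 80.7 to 109 and 47.7 to 98.2 CPM, while the other 5 were below 1 CPM in at least 1 library and 1 of them was at 0 in all. Blood markers summed to 1.43 to 2.54 CPM, endothelial markers to 0.803 to 1.48 and epithelial markers to 1.26 to 4.22. Ptprc, the pan-leukocyte antigen, and Pecam1, of endothelium, had at most 0.0321 and 0.0909 CPM, Epcam was at 0 and Cdh1 had 1 count in D. Of the 8 neural markers only Tubb3 reached 1 CPM, and Snap25 and Sox10 were at 0. In bulk RNA a small number of such cells and a low level in every cell cannot be told apart.

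Extracellular matrix lists were among those with the highest sums, in CPM not divided by length. The 44 collagen genes summed to 20955, 22978, 19939 and 25712 CPM, with 20 of them at 1 CPM or more in every library. The 40 other matrix genes of the list summed to 23944 to 27669 CPM. Thbs1, a matricellular protein, had 2657, 2430, 2716 and 2108 CPM, and Sparc, which binds collagen, 2329, 2492, 2296 and 3307. Tnc, tenascin C, a gene chosen after its values were seen, had 590, 503 and 556 CPM in A to C and 24.6 in D. Elastin (Eln) was at 0 in all libraries. Of surface receptors for this matrix, Itgb1 had 798 to 964 CPM and Itga5, its partner for fibronectin, 416 to 478.

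Genes of division were high in A to C and lower in D. Top2a, which untangles DNA before mitosis, had 656, 604, 605 and 285 CPM, Rrm2, the small subunit of ribonucleotide reductase, 503, 492, 528 and 208, and Mki67 585, 473, 502 and 243. The 44 cell cycle genes summed to 7517, 7203 and 7504 CPM in A to C and to 3811 in D. D was below each of A to C for 37 of the 41 members at 1 CPM or more, where this was so for 44.7% of all genes at that level. Cdkn1a, the p21 inhibitor of cyclin-dependent kinases, had 117 to 128 CPM in A to C and 265 in D. Cdk4 differed less, at 389, 384, 394 and 347 CPM. Cdkn2a was at 0 in all 4 libraries. Tubulins were lower in D as well, with Tuba1b at 2012 to 2141 CPM in A to C and 957 in D and Tubb5 at 1681 to 1747 and 975, and 10 of the 11 tubulin genes at 1 CPM or more had their lowest value in D.

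Protein synthesis and glycolysis genes had higher sums than the cell cycle genes and tubulins. The CVs of the sums were 5.95% for ribosomal proteins, 6.01% for translation factors and 11.4% for glycolysis. They were 27.7% for cell cycle genes and 24.9% for tubulins. The 91 cytosolic ribosomal protein genes summed to 40965, 46565, 43927 and 46483 CPM, 85 of them at 1 CPM or more. Per kb Rpl41 and Rps12 led them, at medians of 2479 and 1623. The 28 translation factors summed to 28167 ± 1692 CPM (SD, n = 4), or 27367 ± 669 CPM without D, and Eef1a1 had the largest share. Eef2, which moves the ribosome along, had 3959, 3993, 4144 and 5680 CPM. Tpt1, the translationally controlled tumour protein, had 1421, 1875, 1638 and 2440. The 21 glycolysis genes summed to 10380, 11086, 10834 and 13300 CPM, with 16 of the 20 at 1 CPM or more highest in D, where 37.5% of all genes were highest. Gpi1, which isomerises glucose 6-phosphate, stood out at 497, 514, 498 and 990 CPM, whereas Pkm, the last enzyme of the pathway, had 1287 to 1423 and Eno1 1156 to 1275. Hsp90ab1, the constitutive HSP90, had 3471 to 3646 CPM with a CV of 2.31%, while Hsp90aa1, its inducible form, had 1154 to 1236 CPM in A to C and 722 in D.

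Signalling genes lay lower. Axl, a receptor kinase, had 456 to 498 CPM and led the 40 growth factor receptors per kb, at 107. Of the secreted ligands Csf1, the macrophage growth factor, had 603, 530, 661 and 398 CPM, Angpt1 154 to 240 and Vegfa 200 to 268. The immediate early gene Ccn1, a target of serum signals, had 164, 256, 294 and 125 CPM. Of the 19 Wnt genes 6 reached 1 CPM in all libraries and all 6 were highest in D, as were 37.5% of all genes at that level. Wnt10b had 69.9, 63.4, 75.7 and 153 CPM and Wnt9a 18.5, 19.4, 17.0 and 109. Of 36 genes of the interferon response, which transfected RNA can set off, 23 reached 1 CPM in all libraries, and the sum was 678 to 941 CPM, of which B2m, the light chain of class I antigens, had 188 to 281 CPM. Of 1378 olfactory receptor genes, taken as a family used mainly outside muscle, 1239 had no count and 1 reached 1 CPM in every library.

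**Figure D4:**
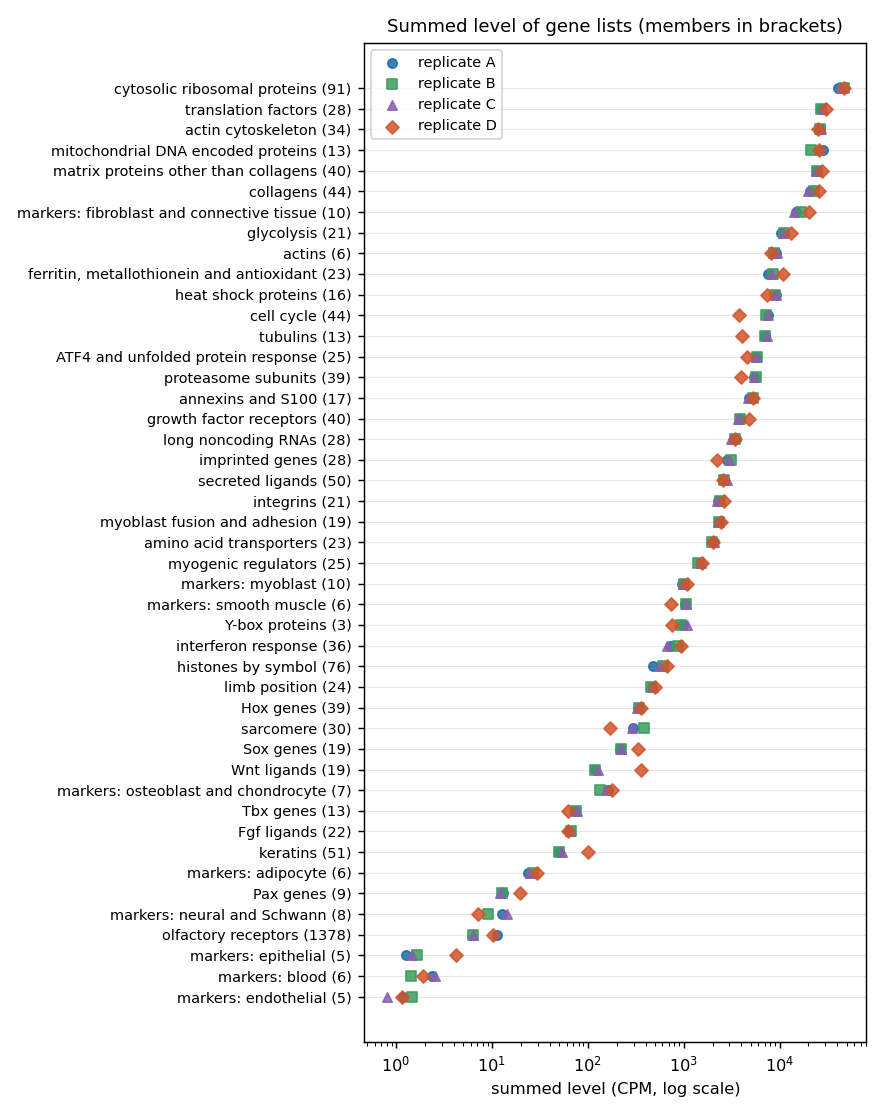
Summed level (CPM, log scale) of gene lists and families in replicates A to D, with 1 point for each library and the number of members in brackets. Ribosomal, translation factor, actin cytoskeleton, collagen, other matrix, mitochondrial DNA, glycolysis and fibroblast marker lists lie above 10000 CPM in every library. Tubulins and actins lie below that level. Markers of blood, endothelial and epithelial cells lie below 5, and replicate D lies apart for cell cycle, tubulin, Wnt and keratin genes.

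Long noncoding and imprinted RNAs held a few high members. H19, a noncoding RNA read from the maternal chromosome next to Igf2, had 1442, 1713, 1546 and 598 CPM and was the highest lncRNA of the list per kb, at a median of 675. Igf2, the growth factor read from the paternal chromosome, had 3.26, 5.68, 2.94 and 0.120 CPM. H19 was above Igf2 in every library, per kb as well, and both were lowest in D. Xist, the RNA of the inactive X chromosome, had 533, 453, 408 and 553 CPM. Neat1, the scaffold of paraspeckles, had 519, 247, 204 and 1244 CPM, whereas Malat1, which lies next to it, had 229 to 318. Gnas had 913 to 1129 CPM, and Meg3 and Dlk1, a neighbouring pair of imprinted genes, were at 0 in all 4 libraries.

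The genes that the study measured covered a wide range. Ybx3, the RNA-binding protein that the study depletes in its other arms, had 318, 311, 332 and 256 CPM, a mean of 304 ± 33.3 (SD, n = 4), and lay at rank 484 by median CPM and 289 per kb. Ybx1, its close relative, had 667, 633, 751 and 505 CPM. Per kb Ybx1 (366) was above Ybx3 (186) with ranges that were apart, and Ybx2, the germ cell form, had at most 0.161 CPM. Replicate D was the lowest library for Ybx1 and Ybx3. Slc1a5, a transporter of glutamine and other neutral amino acids, had 34.2, 33.7, 31.4 and 24.0 CPM, and its relative Slc1a4 had 79.3 to 81.9 with a CV of 1.47%. The chains of the large neutral amino acid transporter, Slc7a5 and Slc3a2, had 144 to 205 and 135 to 159 CPM, and per kb, at medians of 52.9 and 54.0, their ranges overlapped. Slc1a3, a glutamate transporter, had 36.4 to 40.2 CPM in A to C and 14.4 in D. Slc38a2, a sodium-coupled carrier of neutral amino acids, was the highest of the 23 amino acid transporters per kb at 111. Slc2a13, the proton myoinositol carrier, had 2.59 to 3.10 CPM. The ribosomal protein gene Rpl10 had 778 to 1065 CPM, the pentose phosphate enzymes G6pdx and Pgd 213 to 244 and 297 to 345, and the quinone reductase Nqo1 87.7 to 93.0 in A to C and 132 in D.

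The spread between libraries fell with the level and then stayed. Over the 12193 genes at 1 CPM or more the median CV was 14.4%, and 80% of genes lay between 5.26% and 35.8%. Without replicate D the median over the same genes was 6.45%. The median CV was 44.3% for genes with a median of 0.1 to 1 CPM, 23.1% at 1 to 10, 13.3% at 10 to 100, 11.1% at 100 to 1000 and 11.8% above 1000 CPM. Counting error alone would give 26.5%, 7.97%, 2.46%, 1.15% and 0.373% in the same classes. Without D the medians were 33.4%, 13.6%, 5.90%, 4.84% and 5.02%. The median CV lay above that of counting error in each class, with and without D. The common biological coefficient of variation, edgeR's single estimate of this excess for all genes, was 0.246 with 4 libraries and 0.115 without D.

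**Figure D5:**
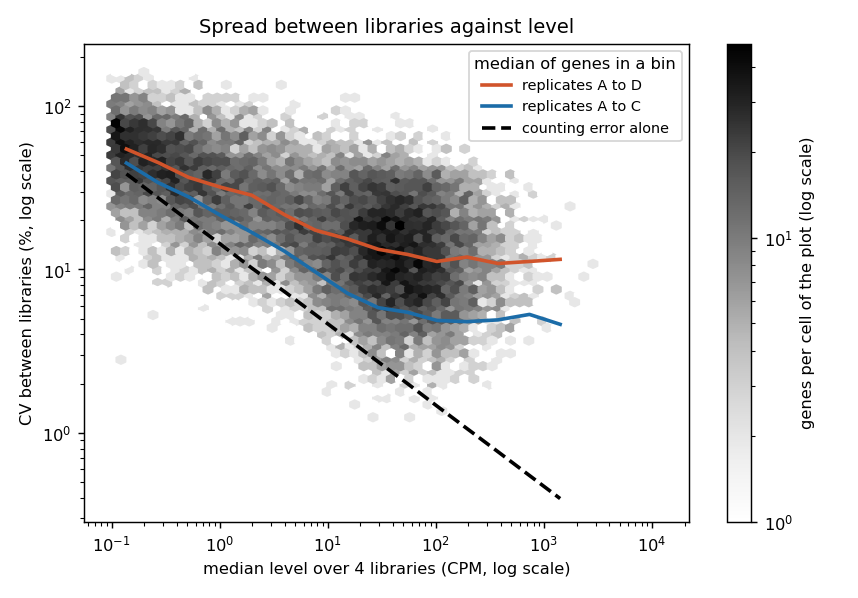
CV between libraries (%, log scale) against median level (CPM, log scale), with genes as shaded cells and the median of genes in each bin as lines for replicates A to D, replicates A to C and counting error alone. The 3 lines are closest below 1 CPM and part above it, and above 100 CPM the line of 4 libraries lies near 11% and that of A to C near 5%.

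For 2311 of the 12193 genes (19%) a single library lay apart from the others, with a gap to the nearest value, as a share of the whole range, above the 95% critical value of Dixon's test for 4 values. Chance alone would give this for about 1 gene in 20. That library was D for 2115 genes, A for 71, C for 69 and B for 56. D was the high one for 1143 genes and the low one for 972. Over all genes the median of D relative to the mean of A to C was 0.968, and it was 0.954 to 0.988 across 4 equal classes of transcript length.

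The 10 genes with the highest CV, among those at 10 CPM or more in all libraries, were all highest in D. Enpp2, the secreted enzyme that makes lysophosphatidic acid, had 17.7, 28.1, 14.5 and 243 CPM. Dhrs3, a retinaldehyde reductase, had 26.8, 32.8, 25.9 and 320 CPM, and Mgp, the matrix Gla protein that inhibits calcification, had 61.3, 97.8, 61.9 and 370. D was far above the others in each, and B was the highest of A to C, whose CVs without D were 35.6% for Enpp2, 13.2% for Dhrs3 and 28.4% for Mgp. The others were Rapgef3, an exchange factor activated by cyclic AMP, Wnt9a, the iron exporter Slc40a1, Mustn1, Tinagl1, Cmbl and the pyruvate carboxylase gene Pcx. In these 10 genes D was at 4.64 to 12.1 times the mean of A to C, and the CVs ran from 95.3% to 147%. When D was left out, none of the 10 genes of highest CV was the same. Named after their values were seen, they included Rps2 and Neat1 (above) and Taf9, which had 25, 32.5, 76.6 and 19.6 CPM. Taf9 lies on chromosome 13 within the span of Ak6, on the same strand, and Ak6 had its lowest value, 34.8 CPM, in replicate C, where Taf9 had its highest. Whether the mapping shared reads between them was not tested.

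The 10 genes with the lowest CV had values that were nearly equal. Gsr, glutathione reductase, had 108.4, 107.5, 108.3 and 107.8 CPM, a CV of 0.385%, and Anxa3, an annexin, 151, 150, 150 and 150 CPM. The others included Tbc1d2b, Cant1, Pomgnt1, Rsu1, Klc1, 4833439L19Rik and Brat1, with CVs up to 0.933%. The median CV that counting error alone gives these genes is 1.53%, so their order in the list lies within counting error. Of 36 commonly used reference genes, 16 had a CV under 10%, and 33 did without D. Over all genes at 10 CPM or more the median CV was 12.3%, and 21 of the 36 lay under it, so as a set they were little steadier than other genes. Sdha, a subunit of succinate dehydrogenase, was the steadiest with 215, 225, 214 and 214 CPM (CV 2.39%), followed by Canx (3.55%), Gusb (3.64%) and Csnk2a2 (3.93%). Gapdh had 1680, 1746, 1749 and 2164 CPM (CV 12.1%, or 2.26% without D) and Actb 4160, 3704, 4292 and 3521 CPM (CV 9.34%). Ubn1, which the study used to normalise its qPCR in mouse cells, had 62.1 to 64.1 CPM in A to C and 74.0 in D (CV 8.5%, or 1.59% without D). The largest CVs were those of Gpi1 (39%), Snrpd3 (24.5%) and Tfrc (24.0%), and all 3 were set by D, with CVs of 1.91%, 3.07% and 10.3% without it.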

How the data were processed

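The members, gene lists and families were chosen with earlier results of these data known. RNAseq was done on 13 libraries of C2C12 cells; the 4 control KD libraries at 0 day were used, grouped by their labels. The authors mapped reads with Salmon to GRCm39 (Gencode M30, canonical list) and deposited estimated counts per gene, as whole numbers and not normalized. Libraries were made with a stranded mRNA kit, which selects polyadenylated RNA, so RNAs without a tail are underrepresented. The deposited whole numbers were used unrounded.

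CPM was counts divided by the library total. Symbols, positions and lengths came from GENCODE vM39 (54969 of 55642 identifiers matched; the other 673 summed to at most 626 CPM per library). CPM per kb used the canonical transcript, for transcripts of 300 nt or more. Pseudogenes at a median of 100 CPM or more were aligned to transcripts with blastn 2.17.0, and sequence windows were read from GRCm39. Dispersion came from edgeR 4.0.16 (filterByExpr, TMM) in R 4.3.3, after tests on simulated data; other values came from Python 3.11.15 with numpy 2.4.6 and pandas 2.3.3. Total counts (33451547 to 62261197) limit precision as given at the results.

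Genes named were the 20 highest by CPM and by CPM per kb, the 10 of highest and 10 of lowest CV at 10 CPM or more, the first 4 members of each list, all myogenic regulators, reference genes, actins, Y-box proteins and study genes, and Hox genes at 1 CPM or more; of these the text gives a choice, and genes at or near 0, Tnc, Cdkn1a, Igf2, Neat1, Rps2, Taf9, Ak6, Tagln and Krt13 among others, were named after their values were seen. There was no comparison between groups and no test. Alternatives were TMM and DESeq2 (1.42.0) size factors, other minimum levels, totals without mitochondrial DNA, and each library left out in turn. The other 9 libraries were not used here. Results of a few genes are not reported here.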

Additional observations from a re-analysis of the deposited data

Results flagged for a closer look

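The 250 values examined were gene levels, list sums and the share of mitochondrial DNA. Of these, 55 (22.0%) had 1 library far from the other 3 by Dixon's criterion. Chance would give about 1 in 20, and 19% of all genes at 1 CPM or more met the same criterion. The values examined included the genes of highest CV, which were ranked by this spread and all met the criterion. Some genes named after their values were seen, Tnc and Cdkn1a, met it as well. The 22.0% is therefore partly set by how the values were chosen, and no excess over all genes can be read from it. The library apart was D for 53 of the 55 values, of which 35 were high and 18 low, B for 2 and neither A nor C for any. The reason was not tested.

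Among the sums, replicate D was low for tubulins (4024 CPM, where the other 3 had a mean of 7191), cell cycle genes (3811 against 7408), genes of ATF4 and the unfolded protein response (4589), heat shock proteins (7448) and smooth muscle markers (737). It was high for matrix proteins other than collagens (27669), growth factor receptors (4794), Wnt ligands (356), Sox genes (334), keratins (100.03), Pax genes (19.5) and epithelial markers (4.22 CPM, where the others had 1.26 to 1.66).

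Among single genes that the text names, D was high for Eef2 (5680 CPM), Car3 (3744), Gapdh (2164), Aldoa (1745), Gpi1 (990.4), Gm29216 (499.9), Pdgfrb (478) and Pgd (345). It was high for the 10 genes of highest CV, which were ranked by this spread: Mgp (370.0), Dhrs3 (320.0), Pcx (267), Enpp2 (243), Wnt9a (109), Slc40a1 (94.0), Rapgef3 (90.8), Tinagl1 (64.6), Mustn1 (62.0) and Cmbl (55.5). It was also high for Cdkn1a (265), Tcf12 (203), Wnt10b (153), Nqo1 (132), Sox9 (98.2), Ubn1 (74.0), Des (50.3), Hoxa7 (23.3), Hoxc6 (20.8) and Pax3 (17.4).

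D was low for Col5a1 (1360.2 CPM), Tubb5 (975), Tuba1b (957), Hsp90aa1 (722), Acta2 (608), Hspd1 (372), Top2a (285), Tubb4b (229), Rrm2 (208), Snrpd3 (56.7), Tnnt2 (28.7), Tnc (24.6) and Slc1a3 (14.4). B was low for Axl (456, with 495 to 498 in the others) and high for Sdha (225, with 214 to 215), both narrow ranges.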

How the results depend on the processing

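No paired analysis was possible because a single group was described and no comparison between groups was made. The number of genes with a count in all 4 libraries (18216) and the number at 1 CPM or more (12193) stayed within 1.5 times under every alternative run, with 18596 to 19100 and 12245 to 12379 genes when each library was left out in turn. The top 100 genes held 19.9% of the counts, and 18.5% without the genes of mitochondrial DNA, whose copies on chromosome 1 were not left out. The share was 31.4% when ranked and summed per kb of transcript, and 19.7% to 20.1% with each library left out. The median CV of 14.4% became 36.7% over all genes with a count in any library, where genes near 0 enter, 12.3% over genes at 10 CPM or more, and 6.52% (without D) to 15.9% (without B) with a library left out. The common biological coefficient of variation of 0.246 was 0.115 (without D) to 0.279 (without B), 0.296 with no filter and 0.147 as the square root of the median gene-wise dispersion of DESeq2, which is another quantity. TMM or DESeq2 size factors moved no gene level or list sum by more than 1.02 times. Replicate D decided the means of the 10 genes of highest CV: without it Enpp2 had 20.1 CPM, Dhrs3 28.5, Mgp 73.7, Pcx 57.6, Wnt9a 18.3, Slc40a1 16.6, Rapgef3 14.8, Tinagl1 12.4, Cmbl 11.9 and Mustn1 11.1, all lower by more than 1.5 times, as was Neat1 at 323 CPM. Without B, Rps2 had a mean of 157 CPM, Acta1 3.61 and Myog 0.219. No list sum moved that far. Depth limits the genes of 0.1 to 1 CPM most, where counting error alone gives a median CV of 26.5%.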

Other observations

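Several further groups had values that none of the paragraphs above covers. The ferritin genes Ftl1 and Fth1, whose products store iron, had medians of 3227 and 2296 CPM per kb and led the 23 genes of metal and oxidant defence, which summed to 7520, 8556, 8313 and 10739 CPM. Of the annexins and S100 proteins, which bind calcium, S100a4 led per kb at a median of 1263, with 617, 722, 548 and 654 CPM, and Anxa2 followed at 873, with 1096 to 1295 CPM. The 39 proteasome genes summed to 5360, 5690, 5411 and 3946 CPM, and 31 of the 35 at 1 CPM or more were lowest in D, where 44.7% of all genes were. Tuba1a led the tubulins per kb at a median of 750.2 although Tuba1b had more counts in A to C, while in D they were nearly equal, at 957.8 and 957.2 CPM.

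Of families that muscle precursors are not known for, 6 of 51 keratin genes reached 1 CPM in all libraries, led by Krt13 at 15.0 CPM per kb, and 27 had no count. Adipocyte markers summed to 23.6 to 29.7 CPM, led by Pparg. Of the histone genes, whose main replication-dependent messages lack a poly(A) tail, 12 of 76 reached 1 CPM, led by the linker histone H1f0, which is read outside S phase as well.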
